A study of Mus musculus with 90 samples.

Results

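The genes described here encode the receptors for glutamate, GABA and glycine, the main amino acid transmitters of the nervous system. They were taken by symbol: the AMPA (Gria), kainate (Grik), NMDA (Grin1 to Grin3), delta (Grid) and metabotropic (Grm) glutamate receptors, the GABA-A (Gabr) and GABA-B (Gabbr) receptors, and the glycine receptors (Glra, Glrb). This rule found 53 of the 20414 genes of the expression table. Of these, 52 were receptor genes and 1, Grin1os, was a transcript named as antisense to Grin1. AMPA, kainate and NMDA receptors are cation channels that carry fast excitation, whereas the metabotropic receptors act through G proteins. GABA-A and glycine receptors are chloride channels built from 5 subunits each, and the subunit mixture sets where a channel sits and how it responds. GABA-B receptors are G protein-coupled pairs of Gabbr1 and Gabbr2. Outside the brain, several of these genes are known from endocrine, epithelial, muscle and peripheral nerve cells.

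Levels were measured by bulk RNA sequencing in 15 tissues of untreated female C57BL/6J mice, given as C57BL/6 and 10 weeks old in the labels. Vaginal smears placed each mouse in estrus or in diestrus, and 3 libraries were made for each tissue and phase, 90 in all. The tissues came from 3 mice per phase and so share animals, although the labels do not say which libraries belong to the same mouse. All values are FPKM, read fragments scaled to transcript length and library size, so that levels can be set roughly side by side between genes and libraries. The FPKM of all genes summed to 353706 in the first diestrus library of cerebrum and to 623534 in the second estrus library of stomach. Differences between tissues therefore depend on the scaling. In bulk tissue, fewer cells of a type and less RNA per cell cannot be told apart.

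The approximate depth, read from the smallest steps between low values, was about 9040000 to 18000000 fragments in 89 libraries and only about 78000 in the third brown adipose tissue (BAT) library of estrus. In that library 1 fragment in a transcript of 5000 bases was worth 2.56 FPKM, against 0.0124 FPKM at the median depth, and it listed only 2 of the receptor genes above 0, Gabbr1 at 5.99 and Grik5 at 11.6 FPKM. Marker genes of heart, skeletal muscle, BAT, white adipose tissue (WAT), liver, kidney, stomach, duodenum, ovary, uterus and spleen were each highest in that tissue. Smooth muscle markers summed to 894 to 1467 FPKM in 5 aorta libraries, to 9594 FPKM in the first estrus library of aorta, and to 821 to 2559 FPKM in vein. The summed level of 6 pan-neuronal markers was 2079 to 2666 FPKM in cerebrum and 1272 to 1411 FPKM in hypothalamus. Cortical excitatory neuron markers summed to 556 to 816 against 5.62 to 25.5 FPKM, and hypothalamic neuron markers to 3.95 to 41.5 against 1548 to 2644 FPKM. Some libraries stood apart. The second estrus and the first diestrus library of cerebrum held striatal neuron markers at 527 and 566 FPKM, against 42.8 to 202 FPKM in the other 4, and the second estrus library of hypothalamus held pituitary markers at 31223 FPKM, against 19.4 to 361 FPKM. Outside the brain, the first estrus library of aorta, the third of ovary and the third of uterus departed from the rest of their tissues, as given beside the results they touch. Others did so too. The first estrus library of duodenum held gastric epithelium markers at 7561 FPKM against 0.26 to 2.04 FPKM and smooth muscle markers at 764 FPKM against 79.3 to 257 FPKM. Smooth muscle markers were at 1041 FPKM in the first estrus library of WAT, against 43.1 to 111 FPKM, and at 2263 FPKM in that of stomach, against 102 to 701 FPKM. The second estrus library of spleen held pancreatic acinar markers at 1233 FPKM against 3.74 to 10.6 FPKM, and the third diestrus library of BAT skeletal muscle markers at 3220 FPKM against 14.3 to 753 FPKM.

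Receptor genes were foremost brain genes. Of the 53, 46 reached a mean of 1 FPKM in cerebrum or hypothalamus, and 22 did so only there. Another 24 reached it both in the brain and elsewhere, and 3 reached it only elsewhere, namely Gabrp, Grin3b and Grm6. Gabra6, Gabrr1, Gabrr3 and Glra4 stayed under 1 FPKM in all 15 tissues. The summed level of all 53 genes was 1515 FPKM in cerebrum and 1331 FPKM in hypothalamus. The next tissues were vein with 122 FPKM, uterus with 99.985 FPKM and ovary with 94.3 FPKM, and skeletal muscle was lowest with 9.29 FPKM.

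**Figure D1:**
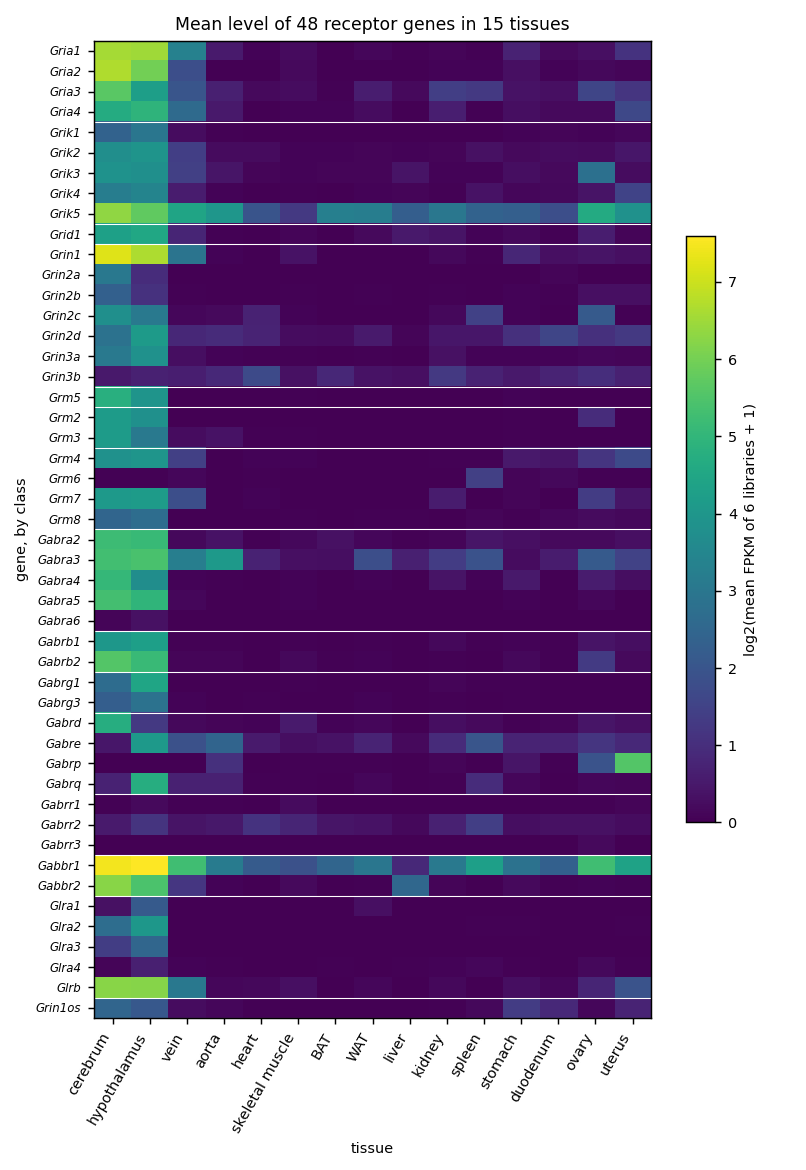
Mean level of 48 of the genes in each of the 15 tissues, on the scale log2(FPKM + 1), over 6 libraries per tissue. Most rows are bright only in the cerebrum and hypothalamus columns. Grik5 reaches a mean of 1 FPKM in every tissue and Gabbr1 in every tissue but liver, and Gabrp is highest in uterus.

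The first comparison asked how the receptor genes differ between the 2 brain regions, with 6 libraries each and the phase as a term of the model. At an adjusted p of at most 0.05 (limma on log2(FPKM + 1), Benjamini-Hochberg over 13653 genes), 36 of 46 tested members differed, of which 16 were higher and 20 lower in cerebrum. This count has to be read against the background: 72.5% of all tested genes differed, 20.2% being higher and 52.3% lower in cerebrum. A difference of at least 1 on the log2 scale as well was met by 13 members, 6 higher and 7 lower, against 8.99% of all genes (4.2% higher and 4.8% lower). The libraries of both regions did not overlap for 29 members, against 50.3% of all genes. The median log2 fold change was -0.09 over the members and -0.18 over all genes tested. The largest differences were spread over several classes. Gabrd, Grin2a, Gria3, Gabra4, Grin2b and Grm3 were over 1 log2 unit higher in cerebrum, and Gabrq, Gabre, Glra1, Gabrg1, Glra2, Grin2d and Glra3 were over 1 log2 unit higher in hypothalamus.

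**Figure D2:**
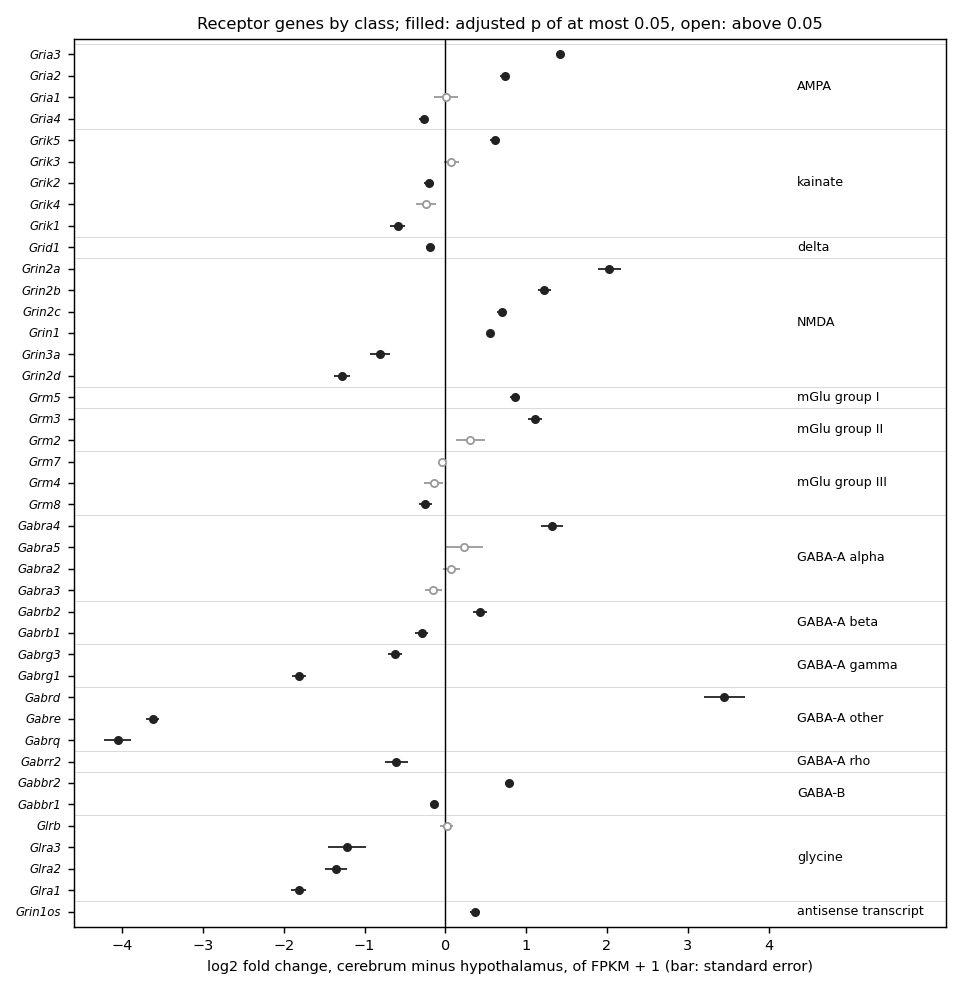
Log2 fold change between cerebrum and hypothalamus, on log2(FPKM + 1), of 41 tested members grouped by receptor class, with bars for the standard error from 6 libraries per region and filled points for an adjusted p of at most 0.05. Positive values are higher in cerebrum, and the extremes lie among the GABA-A subunits outside the alpha, beta and gamma groups, 3.45 for Gabrd and -4.06 for Gabrq.

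Among the 4 AMPA receptor subunits, Gria2 and Gria3 were higher in cerebrum, Gria4 was higher in hypothalamus, and Gria1 did not pass the test. Gria2, the subunit whose edited form keeps calcium out of the channel, ran from 93.8 over a median of 101 to 115 FPKM in cerebrum and from 56.6 over a median of 61.2 to 65.8 FPKM in hypothalamus. The 2 regions did not overlap (log2 fold change 0.73 ± 0.05 (SE), adjusted p = 1.01e-07). Gria3 measured 47.3, 50.2 and 49.9 FPKM in estrus and 51.2, 49.02 and 49.1 FPKM in diestrus in cerebrum. In hypothalamus it measured 20.1, 17.7 and 16.9 FPKM in estrus and 17.1, 18.9 and 16.9 FPKM in diestrus. Every cerebrum library was more than 2 times as high as any hypothalamus library (log2 fold change 1.42 ± 0.05 (SE), adjusted p = 1.71e-10). Gria4, with 24.6 ± 2.4 against 29.7 ± 0.49 FPKM (SD, n = 6 each), was modestly lower in cerebrum (log2 fold change -0.27 ± 0.05). Gria1 spread from 63.3 over a median of 93.6 to 138 FPKM in cerebrum, wider than the 82.6 to 95.3 FPKM of hypothalamus, and its difference of 0.01 ± 0.15 had an adjusted p of 0.977. As a share of the summed AMPA level, Gria3 made up 18.5% ± 2.24 in cerebrum and 9.02% ± 0.56 in hypothalamus (SD, n = 6), and Gria1 34.1% ± 6.12 and 45.3% ± 1.53.

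Of the 5 kainate receptor subunits, only Grik5 was higher in cerebrum. Grik5, which needs a partner among Grik1 to Grik3 to form a channel, was also the most abundant, from 71.8 over a median of 77.9 to 90.8 FPKM in cerebrum and from 50 over a median of 52.2 to 53.2 FPKM in hypothalamus, without overlap (log2 fold change 0.61 ± 0.06 (SE), adjusted p = 1.48e-06). Grik1 (log2 fold change -0.59 ± 0.09) and Grik2 (-0.20 ± 0.06), both subunits that can form channels on their own, were lower in cerebrum. Grik3 and the auxiliary subunit Grik4 gave 0.07 ± 0.09 and -0.24 ± 0.12 and did not pass the test. Grid1, a delta receptor that binds the synaptic organisers of the cerebellin family, ran from 16.9 over a median of 18.9 to 21.4 FPKM in cerebrum and from 20.3 over a median of 21.5 to 23.9 FPKM in hypothalamus, a log2 fold change of -0.19 ± 0.05.

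The NMDA receptor genes divided by subunit. Grin1, the obligatory subunit, was the most abundant, from 139 over a median of 144 to 167 FPKM in cerebrum and from 92.3 over a median of 101 to 104 FPKM in hypothalamus (log2 fold change 0.55 ± 0.04 (SE), adjusted p = 1.27e-07). The transcript Grin1os gave 0.37 ± 0.07, and because the library kit keeps no strand information, reads of Grin1 and Grin1os cannot be told apart where they overlap. Grin2a, the glutamate-binding subunit of the mature forebrain, measured 9.18, 7.92 and 4.19 FPKM in estrus and 7.46, 8.2 and 6.18 FPKM in diestrus in cerebrum. Its values in hypothalamus were 1.1, 0.79 and 0.82 FPKM in estrus and 0.94, 1.14 and 1 FPKM in diestrus. The lowest cerebrum library, 4.19 FPKM, was above the highest hypothalamus library, 1.14 FPKM (log2 fold change 2.03 ± 0.14 (SE), adjusted p = 5.79e-08). Grin2b, the subunit that dominates early in life, measured 4.59, 3.77 and 3.28 FPKM in estrus and 4.15, 4.55 and 3.64 FPKM in diestrus in cerebrum. It measured 1.24, 1.06 and 1.07 FPKM in estrus and 1.32, 1.24 and 0.89 FPKM in diestrus in hypothalamus, again without overlap (log2 fold change 1.22 ± 0.08 (SE), adjusted p = 4.29e-08). Grin2c was higher in cerebrum by 0.70 ± 0.06 on the log2 scale.

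Grin2d and Grin3a went the other way. Grin2d, whose channels open long and are known from interneurons and deep brain nuclei, measured 5.9, 5.65 and 7.78 FPKM in estrus and 4.88, 5.88 and 7.25 FPKM in diestrus in cerebrum. In hypothalamus it measured 15.6, 15.01 and 16.4 FPKM in estrus and 18.4, 18.1 and 15.01 FPKM in diestrus, above every cerebrum library (log2 fold change -1.28 ± 0.10 (SE), adjusted p = 1.32e-07). Grin3a, a glycine-binding subunit that lowers calcium entry, averaged 7.3 ± 1.92 FPKM in cerebrum and 13.3 ± 0.99 FPKM in hypothalamus (log2 fold change -0.81 ± 0.12 (SE), adjusted p = 6.25e-05). Within the summed NMDA level, Grin2a took 3.88% ± 0.95 in cerebrum against 0.69% ± 0.08 in hypothalamus and Grin2b 2.16% ± 0.26 against 0.81% ± 0.10. Grin2d took 3.38% ± 0.7 against 11.7% ± 0.82 and Grin3a 3.98% ± 1.17 against 9.49% ± 0.54. These shares are descriptions, with no test. The seventh member, Grin3b, stayed under 1 FPKM in both regions and was not tested there.

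**Figure D3:**
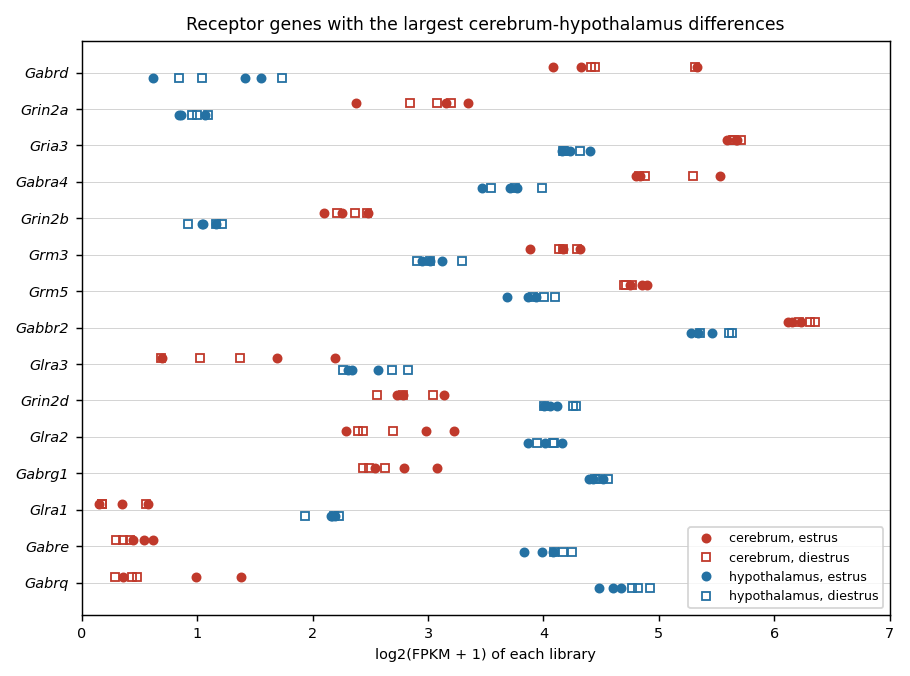
Values of each of the 12 brain libraries, as log2(FPKM + 1), for 15 of the members with the largest differences between the regions. Points are single libraries, marked by region and phase. The genes were chosen among called members whose 2 regions do not overlap, so the separation shown follows from that choice.

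Metabotropic receptors showed 1 regional difference of over 1 log2 unit. Grm3, a group II receptor of astrocytes and neurons, measured 17.02, 18.9 and 13.7 FPKM in estrus and 18.6, 17.01 and 16.6 FPKM in diestrus in cerebrum. It measured 7.72, 6.73 and 7.08 FPKM in estrus and 7.09, 8.84 and 6.5 FPKM in diestrus in hypothalamus, where every library lay below every cerebrum library (log2 fold change 1.11 ± 0.08 (SE), adjusted p = 1.08e-07). Grm2, its presynaptic relative, gave 0.31 ± 0.18 with an adjusted p of 0.146. Grm5, a group I receptor that couples to calcium release, ran from 25.02 over a median of 26.1 to 28.9 FPKM in cerebrum and from 11.9 over a median of 14.2 to 16.2 FPKM in hypothalamus, without overlap (log2 fold change 0.86 ± 0.06 (SE), adjusted p = 1.3e-07). In the presynaptic group III, the most abundant gene Grm7 ran from 15.7 over a median of 16.3 to 16.8 FPKM and from 15.5 over a median of 16.8 to 18.2 FPKM, with overlap and an adjusted p of 0.375. Grm4 did not pass the test (-0.14 ± 0.12), Grm8 was lower in cerebrum (-0.25 ± 0.08), and Grm6, a receptor of retinal bipolar cells, was near 0 in both regions.

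GABA-A receptor genes held the largest differences of all members, and these lay outside the common subunits. Gabrd, the delta subunit of extrasynaptic receptors that respond to neurosteroids, measured 15.99, 39.2 and 19.02 FPKM in estrus and 38.8, 20.8 and 20.3 FPKM in diestrus in cerebrum. Its values in hypothalamus were 1.94, 1.67 and 0.53 FPKM in estrus and 2.32, 1.06 and 0.79 FPKM in diestrus. All 6 cerebrum libraries were above all 6 of hypothalamus (log2 fold change 3.45 ± 0.26 (SE), adjusted p = 1.21e-07), and the 2 libraries rich in striatal markers were its highest. Without these 2 libraries the log2 fold change was 3.12. Gabra4, an alpha subunit that often pairs with delta, measured 26.9, 45.1 and 27.6 FPKM in estrus and 38.4, 27.4 and 28.4 FPKM in diestrus in cerebrum and 10.1 to 14.9 FPKM in hypothalamus, without overlap (log2 fold change 1.32 ± 0.13 (SE), adjusted p = 2.02e-06), and the same 2 libraries were again the highest.

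Gabrq and Gabre, the theta and epsilon subunits, are known from hypothalamic and brainstem neurons. Gabrq measured 0.28, 0.99 and 1.61 FPKM in estrus and 0.39, 0.22 and 0.35 FPKM in diestrus in cerebrum. Its values in hypothalamus were 21.3, 24.5 and 23.3 FPKM in estrus and 29.4, 26.3 and 27.2 FPKM in diestrus, far above every cerebrum library (log2 fold change -4.06 ± 0.17 (SE), adjusted p = 1.06e-09). Gabre was likewise low in cerebrum, 0.36, 0.53 and 0.45 FPKM in estrus and 0.23, 0.34 and 0.28 FPKM in diestrus. In hypothalamus it measured 13.2, 15.9 and 14.9 FPKM in estrus and 16.99, 16.02 and 18.01 FPKM in diestrus (log2 fold change -3.62 ± 0.08 (SE), adjusted p = 1.62e-11). Within the group of Gabrd, Gabre, Gabrp and Gabrq, Gabrd made up 95.9% ± 2.9 of the summed level in cerebrum and 3.26% ± 1.65 in hypothalamus, where Gabrq made up 59.5% ± 1.05 and Gabre 37.3% ± 1.54.

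Gabrq and Gabre lie on the X chromosome together with Gabra3, whose protein-coding neighbour in the RefSeq order is Gabrq. Gabra3 did not share their pattern: it ran from 27.7 over a median of 37.5 to 49.4 FPKM in cerebrum and from 39.1 over a median of 41.1 to 45.9 FPKM in hypothalamus, with a log2 fold change of -0.15 ± 0.10 and an adjusted p of 0.207. The promoters of these 3 genes are shown because Gabra3, with its own pattern, lies between Gabre and Gabrq, which differed alike, and that of Gabrp, a gene of epithelia, because it is the highest member in uterus. Each window holds 250 bases before and 50 after the transcript start in RefSeq on GRCm38.p6, read 5′ to 3′ on the strand of the gene, with CG pairs in capitals. The windows are Gabra3 (chrX:72656870-72657169, minus strand, the first of 2 listed starts), Gabrq (chrX:72824928-72825227, plus strand), Gabre (chrX:72274672-72274971, minus strand) and Gabrp (chr11:33578908-33579207, minus strand).
Gabra3: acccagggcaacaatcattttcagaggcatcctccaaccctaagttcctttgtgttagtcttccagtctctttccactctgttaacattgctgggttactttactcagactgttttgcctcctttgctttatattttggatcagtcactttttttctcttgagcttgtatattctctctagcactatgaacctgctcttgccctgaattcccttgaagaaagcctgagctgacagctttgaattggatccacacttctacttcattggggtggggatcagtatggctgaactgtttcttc
Gabrq: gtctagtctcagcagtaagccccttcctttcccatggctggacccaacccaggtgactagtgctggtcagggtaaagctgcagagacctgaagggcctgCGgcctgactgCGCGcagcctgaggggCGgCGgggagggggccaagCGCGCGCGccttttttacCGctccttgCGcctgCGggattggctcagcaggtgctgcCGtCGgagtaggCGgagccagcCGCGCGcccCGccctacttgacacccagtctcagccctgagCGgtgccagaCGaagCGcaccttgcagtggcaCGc
Gabre: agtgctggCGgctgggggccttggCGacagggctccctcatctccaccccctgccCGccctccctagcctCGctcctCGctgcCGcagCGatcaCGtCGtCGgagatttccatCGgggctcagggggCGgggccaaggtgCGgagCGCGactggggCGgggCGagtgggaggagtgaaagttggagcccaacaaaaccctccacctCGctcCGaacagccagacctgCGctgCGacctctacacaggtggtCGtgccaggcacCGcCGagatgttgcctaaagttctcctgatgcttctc
Gabrp: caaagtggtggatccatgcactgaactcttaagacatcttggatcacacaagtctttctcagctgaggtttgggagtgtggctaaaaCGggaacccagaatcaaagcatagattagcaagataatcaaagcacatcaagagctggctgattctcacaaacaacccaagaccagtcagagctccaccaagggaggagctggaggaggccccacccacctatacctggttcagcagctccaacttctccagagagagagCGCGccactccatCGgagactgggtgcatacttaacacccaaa

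The Gabrq and Gabre windows held 23 and 24 CG pairs, the Gabra3 window 0 and the Gabrp window 4, against a median of 7 over 27025 genes. These are all genes with a listed window, more than the 20414 genes of the expression table. They were not matched to the members by kind of gene, so the shares below do not set receptor genes apart. A window was listed for 37 of the 53 members. The 31 of them whose highest tissue was a brain region had a median of 17 CG pairs (0 to 50), and the 6 whose highest tissue lay outside the brain had a median of 3.5 (2 to 9). Motifs were searched on both strands. GGGCGG, the GC box bound by Sp1, whose letters also hold a CG pair, was found 2 times in the Gabrq window and 3 times in the Gabre window, and in 21 of 37 members (56.8%) against 38.2% of all genes. TATAAA, the letters of the TATA box, was found once in the Gabra3 window, where the strand of the gene reads TTTATA. It was found in 4 of 37 members (10.8%: Gabra3, Gabrb2, Glra2 and Grin3b), against 15.7% of all genes. The distance of a match from the start was not assessed, so a match need not be a TATA box. GGACAGC, a core of the element bound by the neuronal repressor REST, was found for Glra2, Glrb, Gria2 and Grm2 (10.8% against 7.59%). AGGTCA, a binding motif of estrogen receptors and their relatives, was found for Gabrr3, Grin2c and Grm8 (8.11% against 18.1%). The full palindromes of the cyclic AMP and estrogen response elements were found in 0 members, against 2.03% and 0.074% of all genes. These matches describe the letters of the windows only.

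The remaining GABA-A subunits differed less, apart from Gabrg1. Gabra2 and Gabra5 gave 0.07 ± 0.10 and 0.23 ± 0.24 and did not pass the test, and Gabra6, the alpha subunit of cerebellar granule cells, was under 0.3 FPKM on average in both regions. Of the beta subunits, which hold part of the GABA site, Gabrb2 gave 0.43 ± 0.08 and Gabrb1 -0.30 ± 0.08, the latter higher in hypothalamus. Gabrg1 and Gabrg3 belong to the gamma subunits, which anchor receptors at synapses and form the benzodiazepine site. Gabrg1 measured 4.82, 5.91 and 7.44 FPKM in estrus and 4.61, 4.42 and 5.18 FPKM in diestrus in cerebrum. It measured 20.6, 21.9 and 20.04 FPKM in estrus and 22.6, 21.2 and 20.8 FPKM in diestrus in hypothalamus, well above all cerebrum libraries (log2 fold change -1.81 ± 0.09 (SE), adjusted p = 3.8e-09). Gabrg3 was also higher in hypothalamus, with -0.63 ± 0.09. The rho subunits, known from retina, were scarce: Gabrr2 ran from 0.1 over a median of 0.38 to 1.09 FPKM in cerebrum and from 0.97 over a median of 1.18 to 1.63 FPKM in hypothalamus (-0.61 ± 0.14).

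Of the 2 GABA-B genes, Gabbr2, the signalling partner, measured 70.2, 68.6 and 74.2 FPKM in estrus and 80.6, 78.2 and 73.2 FPKM in diestrus in cerebrum. Its hypothalamic values were 37.7, 42.99 and 39.4 FPKM in estrus and 47.7, 48.7 and 40 FPKM in diestrus, below every cerebrum library (log2 fold change 0.78 ± 0.05 (SE), adjusted p = 5.79e-08). Gabbr1, the GABA-binding partner, ran from 162 over a median of 172 to 185 FPKM and from 179 over a median of 192 to 207 FPKM and was slightly lower in cerebrum (log2 fold change -0.14 ± 0.04 (SE), adjusted p = 0.00968). That call, with those of Grid1, Grik2 and Grm8, was lost after quantile normalization, which moved the median of all genes by 0.14.

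The 3 tested glycine receptor alpha subunits, which bind glycine, were higher in hypothalamus, whereas the beta subunit did not pass the test. Glra1, the subunit of spinal and brainstem inhibition, measured 0.11, 0.27 and 0.49 FPKM in estrus and 0.13, 0.13 and 0.47 FPKM in diestrus in cerebrum. In hypothalamus it measured 3.57, 3.47 and 3.5 FPKM in estrus and 3.54, 3.68 and 2.83 FPKM in diestrus, with no overlap (log2 fold change -1.81 ± 0.09 (SE), adjusted p = 5.12e-09). Glra2 measured 3.9, 6.9 and 8.36 FPKM in estrus and 5.5, 4.25 and 4.41 FPKM in diestrus in cerebrum. Its hypothalamic values were 15.1, 16.9 and 13.6 FPKM in estrus and 16.01, 15.9 and 14.4 FPKM in diestrus, again with no overlap (log2 fold change -1.35 ± 0.14 (SE), adjusted p = 2.18e-06). Glra3 had the same order at a lower level, with 0.62, 2.24 and 3.59 FPKM in estrus and 1.59, 0.61 and 1.04 FPKM in diestrus in cerebrum. It had 4.07, 4.91 and 3.95 FPKM in estrus and 5.45, 6.09 and 3.81 FPKM in diestrus in hypothalamus (log2 fold change -1.22 ± 0.23 (SE), adjusted p = 0.000476). Glrb, which ties the receptor to the scaffold gephyrin, ran from 64.2 over a median of 70.8 to 88.8 FPKM in cerebrum and from 70.2 over a median of 74.3 to 75.7 FPKM in hypothalamus, a difference of 0.01 ± 0.08 that turned to -0.11 (adjusted p = 0.0261) without the 2 cerebrum libraries rich in striatal markers.

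Some GABA-A genes lie side by side in the RefSeq order, among them Gabrg1 with Gabra2 and Gabra4 with Gabrb1 on chromosome 5. Neighbours did not share a direction there: Gabra4 was higher and Gabrb1 lower in cerebrum, and Gabrg1 was lower while Gabra2 did not pass the test. Gria2, higher in cerebrum, and Glrb, which did not pass the test, are neighbours on chromosome 3, as are Gabrr2 and Gabrr1 on chromosome 4.

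The 2 cerebrum libraries rich in striatal markers bore on other members too, chosen here after their values were seen. They were the lowest of the 6 in Gria1, at 63.3 and 70 FPKM against 93.2 to 138 FPKM, and in Gabra5, at 20.1 and 22.2 FPKM against 37.0 to 65.6 FPKM. Without them 41 members passed the test, and the share of all genes that passed in that fit is not given here. Gabra5 then gave 0.60 (adjusted p = 0.00222), Grm2 0.50 (0.0268), Gabra2 0.21 (0.0441) and Grm4 -0.30 (0.00720). Without the hypothalamus library rich in pituitary markers too, Gabra2 gave 0.19 (adjusted p = 0.0793) and did not pass, while Gabra5, Grm2 and Grm4 did.

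Genes of transmitter supply and of the proteins that hold the receptors were counted in the same fit, where 72.5% of all tested genes differed, 20.2% being higher and 52.3% lower in cerebrum. Of 8 genes of glutamate supply and uptake, 4 were higher and 2 lower in cerebrum. Slc17a7, the vesicular glutamate transporter of cortical neurons, averaged 594 against 7.72 FPKM (log2 fold change 6.34 ± 0.33). Slc17a6, its counterpart of deeper nuclei, averaged 10.5 against 71.9 FPKM (-2.73 ± 0.17). Of 7 genes of GABA supply and uptake, 0 were higher and 5 lower in cerebrum, among them Slc6a11, a GABA transporter (-2.30 ± 0.12), Gad2, a GABA-synthesising enzyme (-1.06 ± 0.13), and Abat, which degrades GABA (-1.19 ± 0.08), while Gad1 gave -0.05 ± 0.07. The glycine transporter Slc6a9 was lower in cerebrum (log2 fold change -1.47 ± 0.09), and Slc6a5, known from glycine-releasing neurons, did not reach the level tested. Of 19 auxiliary and scaffold genes of glutamate receptors, 13 were higher and 3 lower in cerebrum, including Homer1 (2.62 ± 0.13), which binds group I metabotropic receptors, and Cacng3 (1.98 ± 0.05), an AMPA receptor partner. Of 9 such genes of GABA and glycine receptors, 4 were higher and 3 lower.

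The second comparison set both brain regions against the 13 other tissues. Over all 90 libraries, 45 of 49 tested members were higher in the brain by at least 1 log2 unit, against 21.6% of all genes, and 0 were lower, against 16.2%. Of the 49, 22 passed the level filter only through the brain, so that their part of the count follows from the filter, and 23 of the other 27 were higher. The differences ran from 1.21 for Glra1 to 6.52 for Grin1, with a median of 3.54 over the members and -0.03 over all genes. The 4 members outside this count were Gabrp (-0.50, adjusted p = 0.0441), Grin3b (-0.16), Grm6 (-0.11) and Gabrr2 (0.30). For 47 of the 53 genes the highest mean was in cerebrum (22) or hypothalamus (25). The exceptions were Gabrp in uterus, Grin3b in heart, Grm6 and Gabrr2 in spleen, and, at under 0.2 FPKM, Gabrr3 in ovary and Gabrr1 in skeletal muscle. Glra4 reached its highest mean, 0.59 ± 0.2 FPKM, in hypothalamus.

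The third comparison asked which receptor genes stood out in a tissue outside the brain. Each of the 13 tissues was set against the mean of the remaining 12, over 27 members that reached 1 FPKM in one of them, and 45 calls at an adjusted p of at most 0.05 and 1 log2 unit were made, 36 higher and 9 lower. Grik5 reached a mean of 1 FPKM in all 13 tissues and Gabbr1 in 12, all but liver. Gabbr1 was the highest member in duodenum, kidney, ovary, skeletal muscle, spleen, stomach and vein, and Grik5 in BAT and WAT. Grik5 ran 6.01 to 10.4 FPKM in WAT and 5.88 to 11.6 FPKM in BAT, where the highest value was that of the shallow library, and Gabbr1 5.67 to 8.7 FPKM in kidney. Gabbr1 ran 4.87 to 7.41 FPKM in stomach, 2.28 to 8.85 FPKM in duodenum and 1.46 to 3.51 FPKM in skeletal muscle. The highest duodenum value was that of the first estrus library, which held the gastric epithelium markers, and the other 5 were at 2.28 to 3.75 FPKM.

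**Figure D4:**
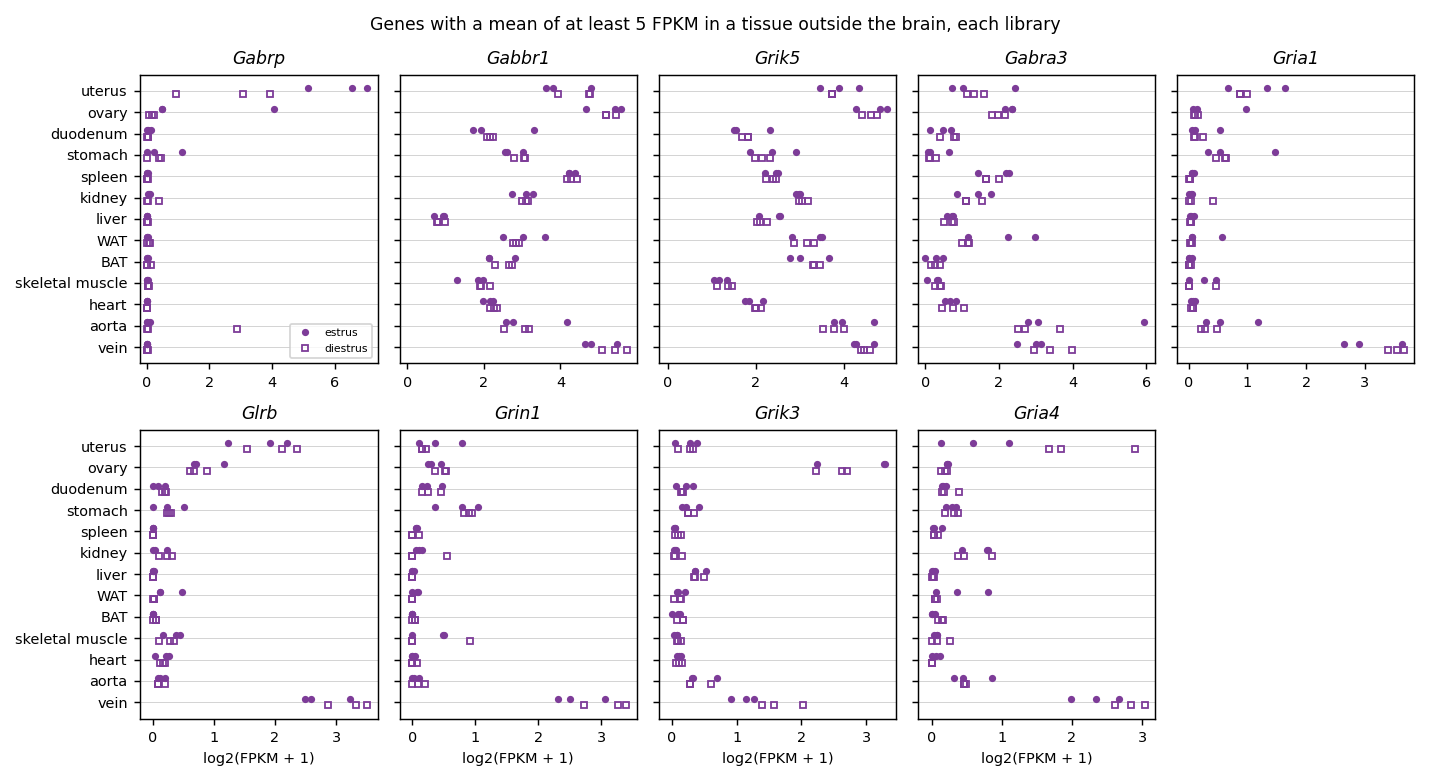
Values of each library of the 13 tissues outside the brain, as log2(FPKM + 1), for 9 of the members that reached a mean of 5 FPKM in one of them. Points are single libraries, 3 per phase, and the ovary values of Grik3 and the vein values of Gria1, Grin1 and Glrb lie above every library of the other tissues, while Gabrp reaches its highest values in uterus.

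Vein had the most calls, 14 of 27 members higher, against 14.9% of all genes, and 0 lower, against 3.43%. Of the 27, 4 passed the level filter only through vein, and all 4 were among the 14, so that 10 of the other 23 were higher. With no filter the count was 14 of 52. Gria1 measured 11.4, 5.26 and 6.51 FPKM in estrus and 11.7, 9.54 and 10.8 FPKM in diestrus. It stayed under 2 FPKM on average in each of the 12 other tissues (log2 fold change 3.03 ± 0.11 (SE), adjusted p = 1.31e-36). Grin1 measured 7.36, 4.66 and 3.98 FPKM in estrus and 8.6, 5.59 and 9.51 FPKM in diestrus and was likewise above all other tissues outside the brain (log2 fold change 2.67 ± 0.09 (SE), adjusted p = 2.82e-39). Glrb measured 8.39, 4.59 and 4.99 FPKM in estrus and 10.3, 6.25 and 9.06 FPKM in diestrus (log2 fold change 2.67 ± 0.09 (SE), adjusted p = 9.33e-40). Gria4 measured 5.36, 2.96 and 4.09 FPKM in estrus and 7.2, 5.13 and 6.16 FPKM in diestrus (log2 fold change 2.28 ± 0.13 (SE), adjusted p = 5.2e-25). Among the others, vein was higher in Gabbr1 (2.26 ± 0.15), Gabra3 (1.95 ± 0.21), Gria2 (1.70 ± 0.06), Grik5 (1.61 ± 0.11), Grm7 (1.55 ± 0.08), Gria3 (1.34 ± 0.10), Grik2 (1.18 ± 0.05) and Grm4 (1.14 ± 0.21). Pan-neuronal markers summed to 348 to 748 FPKM in the vein libraries and to 4.21 to 11.6 FPKM in aorta. Those of catecholamine-producing peripheral neurons were high in all 6, with Dbh, the noradrenaline-synthesising enzyme, at 337 to 745 FPKM and Th, the first enzyme of that pathway, at 173 to 402 FPKM. The part of nerve cells in the vein values was not tested. The number of vein calls was 9 after quantile normalization and 18 with a pseudocount of 0.1.

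Ovary had 6 of 27 members higher, a share like the 22.2% of all genes. Gabbr1 measured 47.3, 41.6 and 24.4 FPKM in estrus and 35.6, 35.3 and 42.4 FPKM in diestrus (log2 fold change 2.31 ± 0.15 (SE), adjusted p = 3.4e-22). Grik3 measured 8.64, 8.8 and 3.72 FPKM in estrus and 5.54, 5.18 and 3.65 FPKM in diestrus, above every other tissue outside the brain (log2 fold change 2.44 ± 0.08 (SE), adjusted p = 1.02e-38). Grik5 measured 30.5, 26.9 and 18.3 FPKM in estrus and 23.3, 20.2 and 25.7 FPKM in diestrus (1.84 ± 0.11 on the log2 scale). Grin2c (1.89 ± 0.06), Gabrb2 (1.14 ± 0.07) and Grm7 (1.05 ± 0.08) were the other 3. After quantile normalization the count was 4, without Gabrb2 and Grm7. Gabrb2 was also lost without the second library of each phase in every tissue. The third estrus library of ovary, with simple epithelium markers at 224 FPKM against 23.0 to 34.1 FPKM in the other 5, held Gabrp at 15.8 FPKM against 0.06 to 0.39 FPKM.

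Uterus had 4 of 27 members higher, a share under the 16.6% of all genes, and Gabrp led them. Gabrp, the pi subunit of reproductive tract epithelium, measured 127, 34.2 and 92.3 FPKM in estrus and 7.32, 14.3 and 0.91 FPKM in diestrus. Its lowest estrus library was above its highest diestrus library, and the tissue difference was 4.26 ± 0.34 (SE), adjusted p = 7.56e-18. Glrb (1.47 ± 0.09), Gabbr1 (1.26 ± 0.15) and Grik4 (1.08 ± 0.12) were also higher. The count was 1, that of Gabrp, after quantile normalization and 2 without the third library of each phase in every tissue, and Grik4 was not called without the third estrus library of uterus alone. The third estrus library of uterus held the squamous keratins Krt5 and Krt14 at a summed 724 FPKM, against 0.15 to 31.4 FPKM in the other 5. It alone held Grm4, at 13.4 FPKM against 0 to 0.03 FPKM.

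Aorta had 3 members higher, against 8.8% of all genes. Gabra3 measured 60.6, 5.95 and 7.32 FPKM in estrus and 11.6, 5.48 and 4.75 FPKM in diestrus, and the first estrus library was more than 5 times any other (log2 fold change 2.26 ± 0.21 (SE), adjusted p = 1.44e-14). That library held smooth muscle markers at 9594 FPKM against 894 to 1467 FPKM, and brown adipocyte markers at 309 FPKM against 2485 to 4760 FPKM. Without the first library of each phase in every tissue the difference of Gabra3 was 1.64, and without the first estrus library of aorta alone the calls of Gabre (1.17 ± 0.15) and Grik5 (1.09 ± 0.11) were lost. That of Grik5 was also lost after quantile normalization. The part of tissue makeup in these values was not tested. In heart, 2 members were higher (8.88% of all genes) and 2 lower (12.7%). Among the higher, Grin3b, a glycine-binding NMDA subunit known from motor neurons, had its highest mean of all 15 tissues there, 2.25 ± 0.41 FPKM (1.01 ± 0.10), and Grik5 (-1.04 ± 0.11) and Gabbr1 were lower. These 3 calls lay close to the limit of 1 log2 unit. Without the second or the third library of each phase in every tissue Grin3b was not called. Neither Grik5 nor Gabbr1 was called without the first library or after quantile normalization. Gabbr1 was called in only 6 of 13 alternatives.

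Liver had 1 member higher (7.48% of all genes) and 1 lower (30.0%), and these were the 2 partners of the GABA-B receptor. Gabbr2 measured 5.45, 3.34 and 4.71 FPKM in estrus and 4.81, 4.49 and 5.94 FPKM in diestrus (log2 fold change 2.36 ± 0.06 (SE), adjusted p = 1.04e-45). Gabbr1 measured 0.9, 0.62 and 0.95 FPKM in estrus and 0.71, 0.75 and 0.98 FPKM in diestrus, its lowest level of the 15 tissues (log2 fold change -2.44 ± 0.15 (SE), adjusted p = 1.14e-23). Liver was the only tissue whose mean was higher for Gabbr2 than for Gabbr1. In spleen 4 of 27 members were higher, a share under the 22.5% of all genes. Gabbr1 ran 17.1 to 20.5 FPKM (1.26 ± 0.15), and Grm6 (1.38 ± 0.05), Gabre (1.15 ± 0.15) and Grin2c (1.14 ± 0.06) were the other 3. After quantile normalization the count was 1, that of Grm6. Stomach had Grin1os higher (11.6%) and Gabra3 lower (9.57%), and the call of Grin1os was lost without the third library of each phase. Lower calls were also made for Grik5, Gabbr1 and Gabra3 in skeletal muscle (30.9%, with 0 higher against 6.27%), Gabra3 in BAT (16.7%, with 0 higher against 7.42%) and Grik5 in duodenum (13.1%). After quantile normalization the calls of Gabbr1 and Gabra3 in skeletal muscle and of Gabra3 in BAT were lost. WAT had 0 members called in either direction, against 7.17% of all genes higher and 7.23% lower. Grin2d and Gabrr2 also reached 1 FPKM in one of these tissues and were called in none.

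The fourth comparison set estrus against diestrus within each tissue, with 3 libraries per phase. In all 15 tissues 0 members were called at an adjusted p of at most 0.05 and 1 log2 unit (limma). The same count over all genes was 0.0% in 13 tissues, 0.00936% in skeletal muscle and 0.00798% in spleen. In hypothalamus, 45 members were tested, and 39 had a negative fold change, that is, a lower mean in estrus. The median was -0.09, against 0.01 over all genes and -0.05 over 44 genes of transmitter supply and receptor-holding proteins. The share of all genes with a negative value is not given here. All members were measured in the same 6 libraries, so their signs are not independent. An unadjusted p under 0.05 was met by 9 members, against 13.2% of all genes, and 13 did not overlap between the phases, against 19.6% of all genes. Of these, 12 were lower in estrus, against 9.64% of all genes. The lowest adjusted p among them was 0.235. Pan-neuronal markers summed to 1272 to 1411 FPKM in estrus and 1363 to 1371 FPKM in diestrus.

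**Figure D5:**
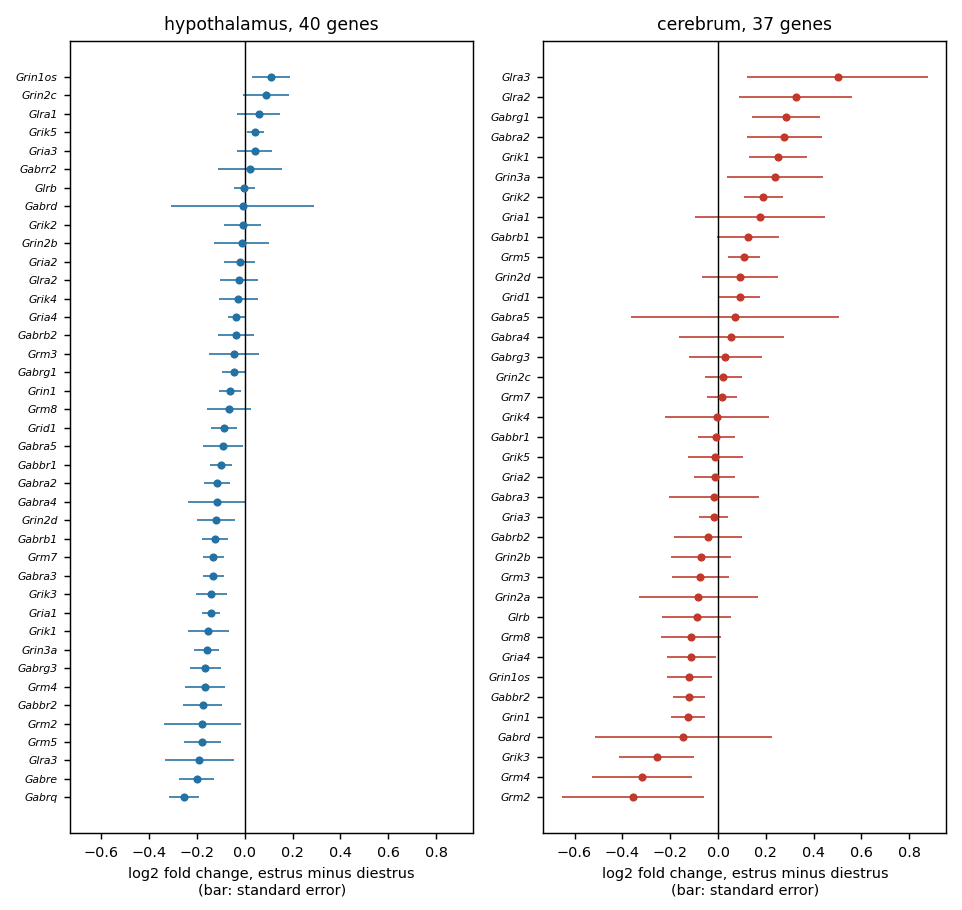
Log2 fold change between estrus and diestrus, on log2(FPKM + 1), of members tested in hypothalamus (left) and cerebrum (right), from 3 libraries per phase, with bars for the standard error. In hypothalamus 34 of the 40 points shown lie under 0 and in cerebrum 20 of 37, and none of the members passed the test.

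The hypothalamic members with the lowest p included Gabrq, Gria1 and Grin3a. Gabrq measured 21.3, 24.5 and 23.3 FPKM in estrus and 29.4, 26.3 and 27.2 FPKM in diestrus. Every estrus library was below every diestrus library (log2 fold change -0.25 ± 0.06 (SE), unadjusted p = 0.00386, adjusted p = 0.235). Gria1 measured 87.8, 86.6 and 82.6 FPKM in estrus and 95.1, 93.5 and 95.3 FPKM in diestrus (log2 fold change -0.14 ± 0.04 (SE), unadjusted p = 0.00616, adjusted p = 0.256). Grin3a measured 13.2, 12.5 and 11.8 FPKM in estrus and 14.03, 14.5 and 13.7 FPKM in diestrus (log2 fold change -0.16 ± 0.05 (SE), unadjusted p = 0.0178, adjusted p = 0.295). The phases of these 3 genes did not overlap, and the largest of these differences was -0.25 on the log2 scale. When a library was left out, 33 to 40 of the 45 members tested had a negative value, and without the library rich in pituitary markers, 36 of 46. These fits reuse the same libraries and are not separate checks.

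In cerebrum, 42 members were tested, with 20 positive and 22 negative fold changes, a median of -0.01 and 0 members at an unadjusted p under 0.05 (3.0% of all genes). The phases did not overlap for 3 members, Grik1 and Grik2, higher in estrus, and Grin1, lower (7.8% of all genes). Grik2 measured 12.7, 13.9 and 13.02 FPKM in estrus and 12.5, 11.3 and 10.7 FPKM in diestrus (log2 fold change 0.19 ± 0.08 (SE), unadjusted p = 0.0513, adjusted p = 1.00). Grik1 measured 4.68, 4.46 and 4.96 FPKM in estrus and 3.07, 4.43 and 3.98 FPKM in diestrus (log2 fold change 0.25 ± 0.12 (SE), unadjusted p = 0.08, adjusted p = 1.00). Neither gene passed the test. Gabrg1 measured 4.82, 5.91 and 7.44 FPKM in estrus and 4.61, 4.42 and 5.18 FPKM in diestrus, with overlap (log2 fold change 0.28 ± 0.14 (SE), unadjusted p = 0.0875, adjusted p = 1.00). Gabbr2 (log2 fold change -0.12 ± 0.07 (SE), unadjusted p = 0.111, adjusted p = 1.00) measured 70.2, 68.6 and 74.2 FPKM in estrus and 80.6, 78.2 and 73.2 FPKM in diestrus. The difference between the phase effects of the 2 regions was tested directly, and 0 members passed, as did 0.0% of all genes. An unadjusted p under 0.05 was met by 6, against 3.95% of all genes, all with a more negative value in hypothalamus and Gabre, Gabrq, Grm5, Grik1 and Grm7 among them, from -0.15 to -0.77, each with an adjusted p of 0.999. For Gabrq, the second and the third estrus library of cerebrum were at 0.99 and 1.61 FPKM against 0.22 to 0.39 FPKM in the other 4, and the same 2 libraries held hypothalamic neuron markers at 41.5 and 24.7 FPKM against 3.95 to 6.96 FPKM. The same 2 libraries were also the highest of cerebrum in Gabrg1, Gabre, Glra2 and Glra3, but not in Glra1 or Grin2d. The part of these markers in the differences was not tested.

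In vein, all 17 tested members had a negative fold change, with a median of -0.46, against -0.10 over all genes. The median was -0.29 over 24 genes of transmitter supply and receptor-holding proteins. The share of all genes with a negative value is not given here. An unadjusted p under 0.05 was met by Gria4, Grik2, Grik3 and Gabbr2 (12.1% of all genes), and 3 members did not overlap, lower in estrus (12.9% of all genes). The lowest adjusted p was 0.412. Markers of peripheral neurons summed to 1458, 686 and 667 FPKM in estrus and 1389, 1115 and 1396 FPKM in diestrus, and their part in the difference was not tested. In uterus, 3 of 11 tested members had an unadjusted p under 0.05 (3.74% of all genes). Gabrp, whose libraries are given above, was 84.7 ± 47.1 FPKM in estrus and 7.51 ± 6.7 FPKM in diestrus (SD, n = 3 each) (log2 fold change 3.59 ± 0.82 (SE), unadjusted p = 0.00329, adjusted p = 0.897). Grik4 measured 3.63, 1.16 and 5.19 FPKM in estrus and 0.52, 0.52 and 0.24 FPKM in diestrus (log2 fold change 1.48 ± 0.47 (SE), unadjusted p = 0.016, adjusted p = 0.897), and Gria4 0.5, 1.14 and 0.09 FPKM in estrus and 2.17, 2.59 and 6.43 FPKM in diestrus (log2 fold change -1.53 ± 0.47 (SE), unadjusted p = 0.0135, adjusted p = 0.897). The phases of these 3 genes did not overlap, against 7.91% of all genes. In a single fit of all 90 libraries, which borrows its spread from the other tissues, Gabrp, Gria4 and Grik4 passed the test (adjusted p = 7.00e-08, 4.94e-10 and 3.65e-10), as did Grm4 (0.0119), whose value rests on the third estrus library. The share of all genes that passed in that fit is not given here, so these calls do not set the members apart from other genes.

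Elsewhere, few members were tested. An unadjusted p under 0.05 was met, among others, by Grin3b in kidney (log2 fold change 0.53 ± 0.15 (SE), unadjusted p = 0.00778, adjusted p = 1.00) and Gabra3 in WAT (log2 fold change 1.02 ± 0.41 (SE), unadjusted p = 0.0421, adjusted p = 0.791). Gabra3 measured 6.95, 1.25 and 3.7 FPKM in estrus and 1.26, 0.99 and 1.25 FPKM in diestrus in WAT, and the highest value was that of the first estrus library, where smooth muscle markers were also highest, at 1041 FPKM against 43.1 to 111 FPKM. Their part in the difference was not tested. This limit was met by 2.87% of all genes in kidney and 5.97% in WAT. In ovary, 9 of 12 tested members had a positive fold change, a share not given for all genes, with a lowest adjusted p of 0.838. In aorta, BAT, duodenum, heart, liver, skeletal muscle, spleen and stomach, 2 to 8 members were tested, and the lowest adjusted p of a tissue ran from 0.421 in skeletal muscle to 0.933 in aorta.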

How the data were processed

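Total RNA of 15 tissues from female C57BL/6J mice (C57BL/6 in the labels) in estrus or diestrus was sequenced on a BGISEQ-500, and the authors deposited 1 table of FPKM for 20414 genes and 90 libraries. Per the labels, reads were aligned with Bowtie2 2.2.5 and quantified with RSEM 1.2.8 on GRCm38.p5, so reads shared by paralogs were divided by a model. Of the genes, 20265 had a symbol. Counts could not be recovered from the FPKM steps. Each comparison was fitted in limma 3.58.1 (R 4.3.3) with an intensity trend on log2(FPKM + 1), which understates the change of low genes, over all genes with a mean of 1 FPKM in a tissue of the fit, with Benjamini-Hochberg adjustment and the phase as a term where tissues were compared. The fits were tested on simulated data. Replicates are labelled as separate libraries, and p-values measure the spread between them. In fits over many tissues, 1 spread per gene was shared by all tissues, including those where the gene was near 0. It can understate the spread within a tissue: the phase SE of Gabrp in uterus was 0.82 within uterus and 0.48 in the fit of all 90 libraries. Tissues of the same mouse were treated as independent in the main fits. Tables and figures used Python 3.11.15, pandas 2.3.3, numpy 2.4.6 and matplotlib 3.10.9.

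Some members, and results that need them, are not reported here. Otherwise all members are named, and library values are given for the 8 called, non-overlapping members with the largest fold change in each direction, the most abundant member of each class, the 5 lowest p-values per brain region between phases, and, outside the brain, members at 5 FPKM or highest in a tissue. Members and lists were chosen with earlier results of these data known. Alternatives were another pseudocount, filter, quantile normalization, a replicate block and leaving out replicates.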

Additional observations from a re-analysis of the deposited data

Results flagged for a closer look

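The 6 libraries of a tissue were compared with each other for each member in each tissue where its mean was at least 1 FPKM, for the members with the largest differences between the brain regions in both regions, and for the members called in a tissue outside the brain. Of these 161 groups, 16 held a library whose gap to its nearest neighbour was too large a part of the range of the group by the Dixon test, a rule that flags about 1 group in 20 by chance. In the brain, Glra1 was 2.83 FPKM in the third diestrus library of hypothalamus, against 3.47 to 3.68 FPKM in the other 5, and Grin3a was 10.97 FPKM in the third estrus library of cerebrum, against 5.49 to 7.5 FPKM. In the first estrus library of aorta, Gabbr1 was 17.16 FPKM against 4.72 to 8 FPKM, Grik5 24.45 FPKM against 10.49 to 14.93 FPKM, Gabra3 60.63 FPKM against 4.75 to 11.62 FPKM, and Gabre 15.86 FPKM against 1.33 to 3.24 FPKM. Gabrp was 6.4 FPKM in the third diestrus library of aorta, against 0 to 0.08 FPKM. The first estrus library of duodenum held Gabbr1 at 8.85 FPKM against 2.28 to 3.75 FPKM and Grik5 at 3.99 FPKM against 1.83 to 2.56 FPKM. The third estrus library of ovary held Gabrp at 15.8 FPKM against 0.06 to 0.39 FPKM, Grm4 at 3.49 FPKM against 0.47 to 1.04 FPKM, and Grin2c at 1.88 FPKM against 3.49 to 4 FPKM. In uterus, Grm4 was 13.36 FPKM in the third estrus library, against 0 to 0.03 FPKM, Gabra3 4.45 FPKM in the first estrus library, against 0.65 to 2.04 FPKM, and Grin2d 2.26 FPKM in the third diestrus library, against 1.06 to 1.46 FPKM. Gabra3 was 0.57 FPKM in the first estrus library of stomach, against 0.05 to 0.23 FPKM.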

How the results depend on the processing

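Each comparison has a total count of called members. Over the comparisons and alternatives, 235 such totals stayed within 1.5 times their main value and 6 moved. Totals of 0 that stayed at 0 are among the 235, and all 15 phase comparisons had 0 in the main fit. The number 235 therefore says little about stability. In cerebrum against hypothalamus, the 36 calls became 13 under the added limit of 1 log2 unit and 36 to 37 when a replicate was left out. The 45 members higher in the brain stayed at 45 throughout the left-out replicates. For the 13 other tissues, the 45 calls became 144 with a pseudocount of 0.1, 26 with a filter of 5 FPKM, 26 after quantile normalization and 241 by the adjusted p alone, and ran from 42 to 43 when a replicate was left out. Counts of single tissues moved more: with a pseudocount of 0.1 the members called lower went from 1 to 16 in BAT and in liver, from 3 to 10 in skeletal muscle, from 2 to 9 in heart, from 0 to 9 in spleen and from 1 to 6 in duodenum, and those called higher from 4 to 9 in uterus and from 6 to 11 in ovary. In uterus, a single fit of all 90 libraries called 4 members between phases in place of 0, and the share of all genes called in that fit is not given. Chosen after seeing the data, a fit without the vein libraries gave 31 calls, in which each tissue is set against the 11 that remain. Also chosen after seeing the data, leaving out the 2 cerebrum libraries rich in striatal markers turned Glrb to -0.11, and leaving out the hypothalamus library rich in pituitary markers too turned it to -0.12. For single members between the brain regions, and for those of lowest p between phases, 950 values kept their direction and side of the threshold, 13 moved, 10 passed it, 4 lost it (Gabbr1, Grid1, Grik2 and Grm8, after quantile normalization) and 2 reversed, and the cause was not tested. With the replicate number as a block, 36 members were called between the brain regions, 45 in the brain against the other tissues, 45 over the other tissues and 0 between phases. Same-numbered libraries of the 2 regions deviated together only weakly, with correlations of 0.02 to 0.22. No values of differently numbered libraries are given beside them, so these cannot decide whether the numbers mark the same mouse. The main fits left the libraries unpaired. FPKM without counts and 3 libraries per phase limit the phase comparisons. Even the log2 fold change of 3.59 of Gabrp in uterus did not pass (limma, adjusted p = 0.897). The 0 calls therefore do not exclude large differences between phases.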
